A study of Homo sapiens with 6 samples.

Results

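The 39 genes described here are the 13 protein genes of the mitochondrial genome (mtDNA) and 26 nuclear genes whose products transcribe, replicate, process, stabilise or regulate it. They were taken by symbol from a table of 26490 genes, and all 39 were found there. The mitochondrial genes stand in the table without their usual prefix, as ND1 to ND6, ND4L, CYTB, COX1 to COX3, ATP6 and ATP8. The rows COX1 and COX2 are the cytochrome oxidase genes. PTGS1 and PTGS2, the cyclooxygenase genes sometimes given those abbreviations, have rows of their own with at most 2 and 3 counts in any library.

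RNA-seq libraries were made from SW403, an established human colon adenocarcinoma cell line, grown for 24 h in serum-containing DMEM without any treatment. The 3 control libraries carry the genotype label WT and the letters NS, and the 3 knockdown libraries the label IRS2 knockdown and the letters KO. Both groups are otherwise the same line in the same medium. The replicates are titled as biological and were seeded in triplicate. How IRS2 was lowered, and whether replicates came from separately made lines, is not given in the labels, so p-values measure the spread between these cultures only, which may be technical.

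The control libraries held 11816973 to 12585013 counts and the knockdown libraries 14329348 to 18114656, so every knockdown library was the deeper. IRS2 itself, on chromosome 13 from 110405042 to 110438930 of GRCh37, had 408, 437 and 381 counts in control and 186, 210 and 216 in knockdown libraries (log2 fold change -1.39 ± 0.072 SE, adjusted p 3.12e-11 in edgeR). Of 10 colon epithelial markers, 5 were at 10 CPM (counts scaled to a common library total) or more in every library, while KRT20 and CDX1 were at 0 and CDH1 and LGALS4 were under 1 CPM in each. The 5 fibroblast markers summed to between 8.55 and 24.9 CPM in the controls and between 5.63 and 6.51 CPM after knockdown. The highest value was that of control replicate 1, where COL1A1 and COL1A2 were also at their highest, at 15.3 and 6.83 CPM. DCN reached at most 3 counts and COL1A1 at most 193 in any library. The epithelial markers summed to between 2536 and 2637 CPM in the controls and between 2364 and 2456 CPM after knockdown. EPCAM, KRT8, KRT18 and KRT19 were lower in every knockdown library than in any control, KRT18 narrowly (1093.6 and 1094.1 CPM at the nearest). CDX2 (at most 79.8 CPM in a control and at least 80.9 after knockdown) and VIL1 (at most 4.93 and at least 5.13) were higher. Marker CPM here use library totals alone. With the TMM scaling factors used below (1.006 to 1.014 in controls, 0.984 to 0.993 after knockdown), KRT8 and KRT18 overlapped between groups. Normalised CPM did not overlap between groups for 47.6% of all genes tested. Leukocyte markers summed to at most 3.05 CPM and endothelial markers to at most 0.716 CPM. In bulk RNA, fewer cells of a kind and less RNA per cell cannot be told apart, and the part of these marker differences in the results below was not tested.

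mtDNA is a small circular genome that encodes core subunits of respiratory complexes I, III and IV and of ATP synthase, together with the rRNAs and tRNAs needed to translate them inside the organelle. It is transcribed from both strands as long precursors by the polymerase POLRMT with TFAM and TFB2M. Most of the mRNAs are then released when the tRNAs that flank them are cut out, by mitochondrial RNase P at one end of each tRNA and by ELAC2 at the other. Transcripts made from the same precursor can therefore differ in level through processing, stability and decay, in which LRPPRC, SLIRP, PNPT1, SUPV3L1 and MTPAP act.

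A pair of short overlaps limits how reads can be divided between neighbouring mitochondrial genes. In the reference used here, GRCh37 with the GENCODE annotation, the last 46 bases of ATP8 are also the first 46 bases of ATP6 (chrM:8527-8572), and the last 7 bases of ND4L are the first 7 of ND4 (chrM:10760-10766). The members of each pair lie on a shared, bicistronic mRNA. The overlaps are shown in capitals with 15 flanking bases on each side, on the strand of these genes:
ATP8/ATP6 overlap: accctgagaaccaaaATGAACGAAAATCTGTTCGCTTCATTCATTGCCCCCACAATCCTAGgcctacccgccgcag
ND4L/ND4 overlap: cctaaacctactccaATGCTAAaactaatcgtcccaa
The start codon of the downstream gene opens each capital run. A read that covers any base of such a run overlaps both genes, and how such reads were assigned is not given in the sources used here. The reference mitochondrial chromosome has 16569 bases. The submitters' processing notes name hg19, for which more than one mitochondrial sequence has circulated, and the count table carries no coordinates.

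The promoter windows of 3 nuclear members are shown as background to the results for transcription and RNA processing: POLRMT, which rose, and TFB2M and TRMT10C, which fell. NRF1 and the ETS factor GABPA are the classical regulators of nuclear genes for mitochondrial functions. Capitals mark matches on either strand to GCATGCGC, a core of the NRF1 site, or to CCGGAAGT, an ETS site, in RefSeq windows (GRCh38.p14) from 250 bases before to 50 after the start, written on the gene's strand:
POLRMT, chr19:633488-633787: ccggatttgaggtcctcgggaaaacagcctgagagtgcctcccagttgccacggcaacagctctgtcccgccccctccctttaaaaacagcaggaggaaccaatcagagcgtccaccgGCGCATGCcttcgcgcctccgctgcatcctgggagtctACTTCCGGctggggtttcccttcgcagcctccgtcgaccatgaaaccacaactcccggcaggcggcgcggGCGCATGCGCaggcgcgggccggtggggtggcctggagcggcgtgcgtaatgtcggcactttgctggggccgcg
TFB2M, chr1:246566212-246566511: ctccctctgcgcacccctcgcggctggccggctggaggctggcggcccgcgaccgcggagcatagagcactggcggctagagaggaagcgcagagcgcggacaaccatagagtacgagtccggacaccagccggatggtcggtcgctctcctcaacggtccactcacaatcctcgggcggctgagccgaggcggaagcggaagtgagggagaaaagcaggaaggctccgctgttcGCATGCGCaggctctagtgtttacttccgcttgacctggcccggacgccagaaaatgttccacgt
TRMT10C, chr3:101561618-101561917: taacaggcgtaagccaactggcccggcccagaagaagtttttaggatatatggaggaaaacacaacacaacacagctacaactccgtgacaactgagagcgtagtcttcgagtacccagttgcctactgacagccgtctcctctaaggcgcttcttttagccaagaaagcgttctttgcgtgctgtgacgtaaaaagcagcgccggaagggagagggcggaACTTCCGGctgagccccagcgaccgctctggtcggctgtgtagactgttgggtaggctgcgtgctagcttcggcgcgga
The POLRMT window held 2 NRF1 matches and 1 ETS match, the TFB2M window 1 NRF1 match and the TRMT10C window 1 ETS match. A window was at hand for 23 of the 26 nuclear members. A member with several windows was counted if any of them held the word, while the percentages of all windows are per window. The NRF1 word was in those of 5 (ESRRA, MTPAP, POLRMT, TFB1M and TFB2M) and in 3.05% of all 35116 windows. The ETS word was in those of 8 (ELAC2, GABPA, MTERF1, MTERF4, POLRMT, SSBP1, TEFM and TRMT10C) and in 4.14% of all windows. The word TCAAGGTCA of oestrogen-related receptors was in none of the 23 and in 0.35% of all. Matches occurred in members that rose, that fell and that did not pass the test. Among the other called members, the window of ESRRA held an NRF1 match, and those of LRPPRC, PNPT1 and POLG held no match. Only exact copies of each word were counted, so variants of a site would be missed.

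Of the 13 mitochondrial genes, 6 were higher in knockdown and 0 lower in edgeR's quasi-likelihood test over 13832 genes. Of all genes, 38.5% passed the threshold of an adjusted p of 0.05, with 19.3% higher and 19.2% lower. Groups did not overlap for 6 of the 13 mitochondrial genes, against 47.6% of all genes tested. The 6 higher genes were ND1, ND2, COX1, COX2, ND4L and ND4, with increases of 11.5% to 17.7%. The other 7, ATP8, ATP6, COX3, ND3, ND5, ND6 and CYTB, had log2 fold changes from -0.10 to 0.040. At an unadjusted p under 0.05, 1 gene (ND3) was lower, and DESeq2's Wald test and limma voom called 0 lower. The median log2 fold change was 0.04 for the 13 genes and -0.004 for all genes tested.

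**Figure D1:**
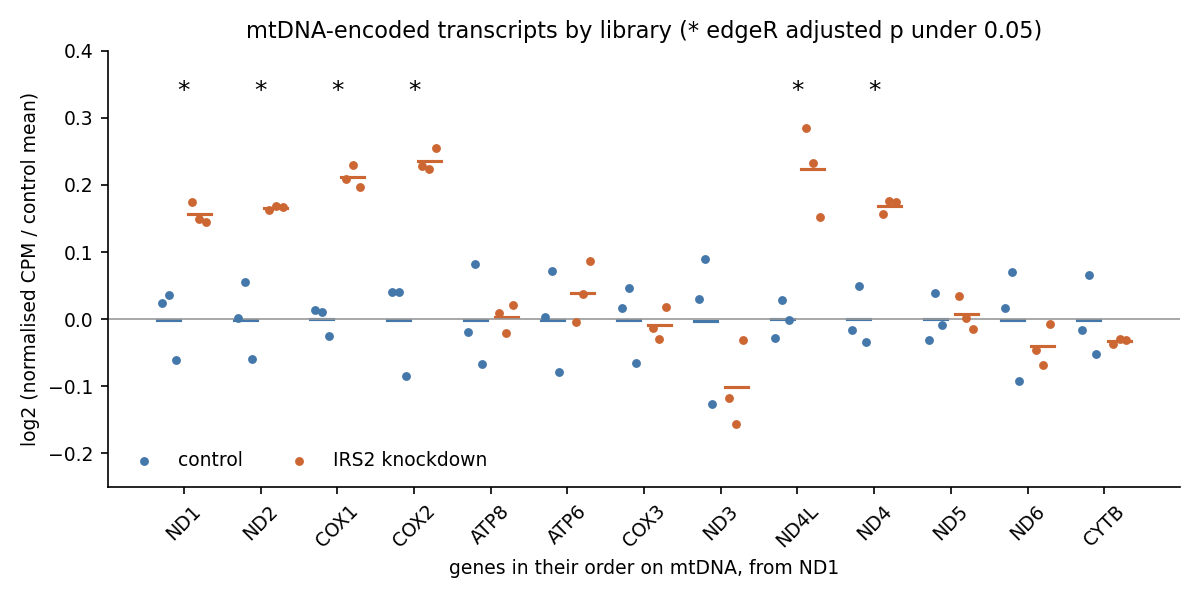
Normalised CPM of the 13 mtDNA-encoded genes in each library, as log2 of the ratio to the control mean (vertical axis), in their order on mtDNA (horizontal axis); points are libraries, short lines group means, and asterisks genes with an edgeR adjusted p under 0.05. The knockdown libraries lie above all control libraries for ND1, ND2, COX1, COX2, ND4L and ND4, and mix with them for the other 7 genes.

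COX1 and COX2 encode catalytic core subunits of cytochrome c oxidase, complex IV. COX1 stood at 14068, 14032 and 13694 in the control libraries and 16094, 16342 and 15973 in the knockdown libraries, in CPM normalised with TMM factors. COX2 stood at 4649.7, 4648 and 4264 in the control libraries and 5294, 5278 and 5394 in the knockdown libraries, in the same unit. For both genes every knockdown library exceeded every control library (log2 fold change 0.21 ± 0.021 SE, adjusted p 2.27e-07 in edgeR for COX1; log2 fold change 0.23 ± 0.029 SE, adjusted p 3.54e-06 in edgeR for COX2). COX3, the remaining mitochondrial subunit of the complex, had 5194, 5308 and 4910.0 in the control libraries and 5089.6, 5036 and 5203 in the knockdown libraries. Its groups overlapped, and its log2 fold change was -0.008 ± 0.027 (SE; edgeR adjusted p 0.851).

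The mitochondrial subunits of complex I, NADH dehydrogenase, fell into both kinds. ND4, a proton-pumping subunit, had normalised CPM of 7072, 7396 and 6980.3 in the control libraries and 7968, 8080.1 and 8071 in the knockdown libraries (log2 fold change 0.17 ± 0.024 SE, adjusted p 1.85e-05 in edgeR). ND4L, its partner on the bicistronic mRNA, had 914, 951 and 932 in the control libraries and 1136, 1096 and 1036 in the knockdown libraries (log2 fold change 0.22 ± 0.032 SE, adjusted p 1.67e-05 in edgeR). ND1 and ND2 are the first protein genes after the rRNAs. ND1 was at 2358, 2377 and 2223 in the control libraries and 2618, 2573 and 2566 in the knockdown libraries (log2 fold change 0.16 ± 0.027 SE, adjusted p 0.000158 in edgeR). ND2 was at 3552, 3684 and 3404 in the control libraries and 3969, 3985 and 3984 in the knockdown libraries (log2 fold change 0.17 ± 0.027 SE, adjusted p 7.52e-05 in edgeR). None of these 4 genes had overlapping groups.

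ND5 and ND3 are further subunits of the membrane arm of complex I. ND5 was at 3658, 3839 and 3715 in the control libraries and 3826, 3741 and 3702 in the knockdown libraries, and its log2 fold change was 0.007 ± 0.025 (SE; edgeR adjusted p 0.85). ND3 was at 788, 821 and 707 in the control libraries and 711, 693 and 756 in the knockdown libraries (log2 fold change -0.10 ± 0.043 SE, adjusted p 0.0711 in edgeR). Control replicate 3 lay among the knockdown libraries for ND3. Without that library ND3 had an adjusted p of 0.00226 in edgeR (log2 fold change -0.16), and without knockdown replicate 3 of 0.0123. With library size alone or upper-quartile factors as scaling its adjusted p was 0.0165 and 0.0341.

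ND6 is the only protein gene transcribed from the other strand of mtDNA. It was at 1088, 1130.0 and 1009 in the control libraries and 1042, 1026 and 1070.1 in the knockdown libraries (log2 fold change -0.040 ± 0.034 SE, adjusted p 0.384 in edgeR), with overlapping groups. Without control replicate 3 its adjusted p was 0.044 (log2 fold change -0.080, edgeR), and without control replicate 2 the log2 fold change was 0.001. The strand setting of the counting is not stated, and without strand, reads from ND6 and from the opposite-strand precursor that runs through the same segment cannot be told apart.

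CYTB, the mitochondrial subunit of complex III, was at 3626, 3840.1 and 3539 in the control libraries and 3577, 3596 and 3591 in the knockdown libraries (log2 fold change -0.032 ± 0.028 SE, adjusted p 0.391 in edgeR). The ATP synthase subunits share a transcript as well as an overlap. ATP6 was at 5549.6, 5817 and 5246 in the control libraries and 5519, 5682 and 5879.6 in the knockdown libraries (log2 fold change 0.040 ± 0.032 SE, adjusted p 0.348 in edgeR). ATP8 was at 1529, 1640.5 and 1481 in the control libraries and 1559.6, 1528 and 1573 in the knockdown libraries (log2 fold change 0.003 ± 0.032 SE, adjusted p 0.95 in edgeR). All 3 genes had overlapping groups.

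The 6 increases held their direction and passed the threshold in each of 18 alternative fits, with log2 fold changes of 0.126 to 0.211 for ND1, 0.136 to 0.224 for ND2, 0.182 to 0.24 for COX1, 0.199 to 0.306 for COX2, 0.194 to 0.322 for ND4L and 0.139 to 0.208 for ND4. With a per-library trend of length and GC content removed, ATP6 (log2 fold change 0.11, edgeR adjusted p 0.000128), ATP8 (0.12, 0.000387) and COX3 (0.057, 0.017) also passed as higher. ND3 was then at 0.003, ND6 at 0.045 and CYTB at 0.015, none of them past the threshold.

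Together the 13 genes took 5.46, 5.58 and 5.28% in control and 5.79, 5.81 and 5.78% in knockdown libraries of all counts. The groups did not overlap, and the exact two-sided permutation p was 0.1, the smallest that 3 against 3 can give. The means were 5.44% ± 0.15 and 5.80% ± 0.0125 (SD, n = 3 each), and the 3 knockdown libraries were closer to each other than the controls were. Counting error is small at this depth: the widest 95% Wilson interval of a library's share was ± 0.0127 percentage points, though amplified reads are not independent molecules and the interval covers counting error only.

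Shares within the 13 genes do not depend on how libraries are scaled. COX1 took 26, 25.3 and 26.3% in control and 27.6, 27.9 and 27.2% in knockdown libraries of the mitochondrial counts and COX2 took 8.6, 8.38 and 8.18% in control and 9.06, 9 and 9.18% in knockdown libraries. The shares of ND1, ND2 and ND4 were also higher in every knockdown library, ND4 moving from 13.3% ± 0.165 to 13.7% ± 0.0675 (mean ± SD, n = 3 each). That of ND1 was apart by only 0.001 percentage points. ND4L was the exception among the 6, with shares of 1.69, 1.71 and 1.79% in control and 1.95, 1.87 and 1.76% in knockdown libraries, which overlap.

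The 7 other genes all took smaller shares in every knockdown library than in any control. COX3 went from 9.53% ± 0.098 to 8.72% ± 0.132, CYTB from 6.81% ± 0.107 to 6.12% ± 0.0125 and ATP6 from 10.3% ± 0.208 to 9.71% ± 0.276 (mean ± SD, n = 3 each). ND5 went from 6.94% ± 0.181 to 6.41% ± 0.131, ATP8 from 2.88% ± 0.0703 to 2.65% ± 0.0388 and ND3 from 1.43% ± 0.0657 to 1.23% ± 0.0527. The ND6 share was 2.01, 2.04 and 1.94% in control and 1.78, 1.75 and 1.82% in knockdown libraries. Shares sum to the whole, so a larger share of some genes entails a smaller one of others. For 12 of the 13 shares the exact permutation p was 0.1, which is 0.108 when adjusted over the 13, and for ND4L it was 0.2.

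**Figure D2:**
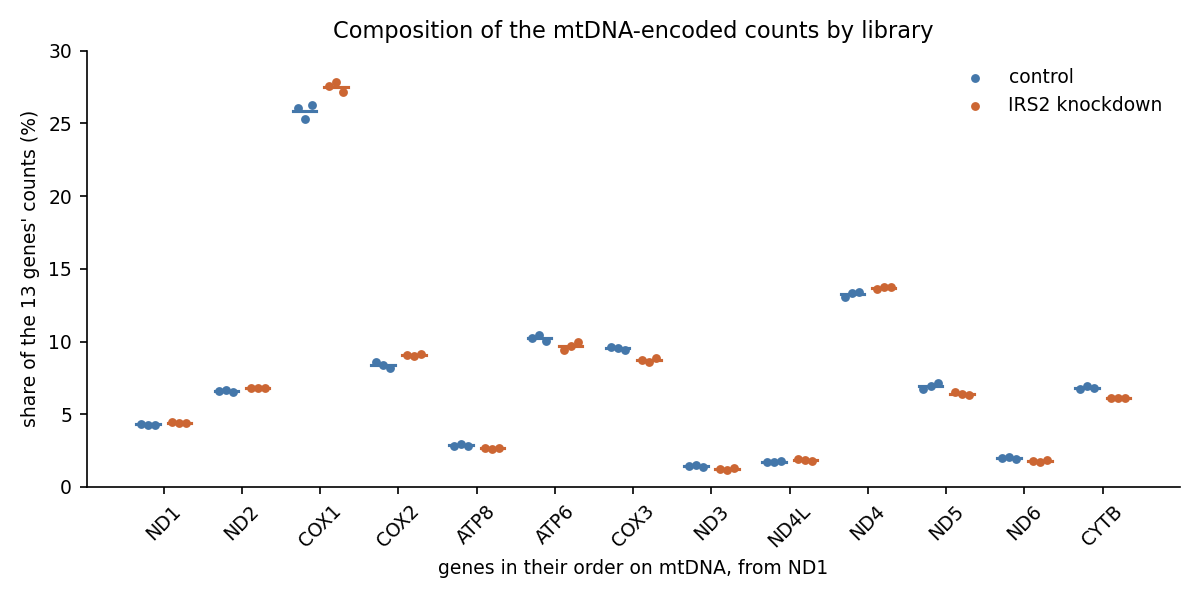
Share of each gene in the counts of the 13 mtDNA-encoded genes, in percent (vertical axis), by library, with genes in their order on mtDNA (horizontal axis); points are libraries and short lines group means. COX1 holds at most 26.3% in a control and at least 27.2% in a knockdown library, while the points of ATP8, ATP6, COX3, ND3, ND5, ND6 and CYTB are lower in knockdown.

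Along mtDNA the genes called higher stood in runs. Reading from the first gene, ND1 (chrM:3307-4262), ND2 (chrM:4470-5511), COX1 (chrM:5904-7445) and COX2 (chrM:7586-8269) rose, the next 4 (ATP8, ATP6, COX3 and ND3) did not pass, ND4L (chrM:10470-10766) and ND4 (chrM:10760-12137) rose, and the last 3 (ND5, ND6 and CYTB) did not pass. With the length and GC offset, under which ATP8, ATP6 and COX3 passed as higher too, ND3 alone separated the runs. ATP6 and COX3 adjoin with no tRNA between them, sharing 1 base, and ATP8, ATP6 and COX3 form a run of directly joined genes. Across the 13 genes, Spearman's rho between log2 fold change and start position was -0.47, with gene length 0.21, with GC content 0.25 and with the control level per kb 0.45. The genes share their precursors and libraries, so these describe the set only. All 13 are annotated as single exons.

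The split of counts between partners was compared for both bicistronic pairs. ATP8 took 21.6, 22 and 22% in control and 22, 21.2 and 21.1% in knockdown libraries of the counts of ATP8 and ATP6, and the exact permutation p was 0.4. ND4L took 11.4, 11.4 and 11.8% in control and 12.5, 11.9 and 11.4% in knockdown libraries of the counts of ND4L and ND4, with the same exact p of 0.4. In both pairs the groups overlapped. The difference of the means was -0.424 percentage points for the first pair and 0.392 for the second, against standard deviations of 0.232 and 0.510 in the first pair and 0.209 and 0.552 in the second.

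Per length, the mitochondrial transcripts spanned a 4.41-fold range in control. COX1 was highest at 9035 ± 134 normalised CPM per kb of gene (SD, n = 3), followed by ATP6 at 8132 ± 419.6, ATP8 at 7488 ± 396, COX2 at 6609 ± 325 and COX3 at 6553 ± 261. ND4 came next at 5188 ± 159, ahead of ND2 at 3404 ± 134, CYTB at 3215 ± 136 and ND4L at 3139.5 ± 62.5. ND1 at 2426 ± 87.9, ND3 at 2231 ± 169.8, ND5 at 2063 ± 51 and ND6 at 2049 ± 117 were lowest. Neighbours whose control libraries overlapped were ATP6 and ATP8, COX2 and COX3, ND2 with CYTB and CYTB with ND4L, and each neighbouring pair from ND1 down to ND6. In knockdown, COX2 (7781 ± 92.6) ranked ahead of ATP8 (7506 ± 111), and ND4L (3667 ± 169.7) ahead of CYTB (3145 ± 8.37). The other 9 genes kept their rank.

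**Figure D3:**
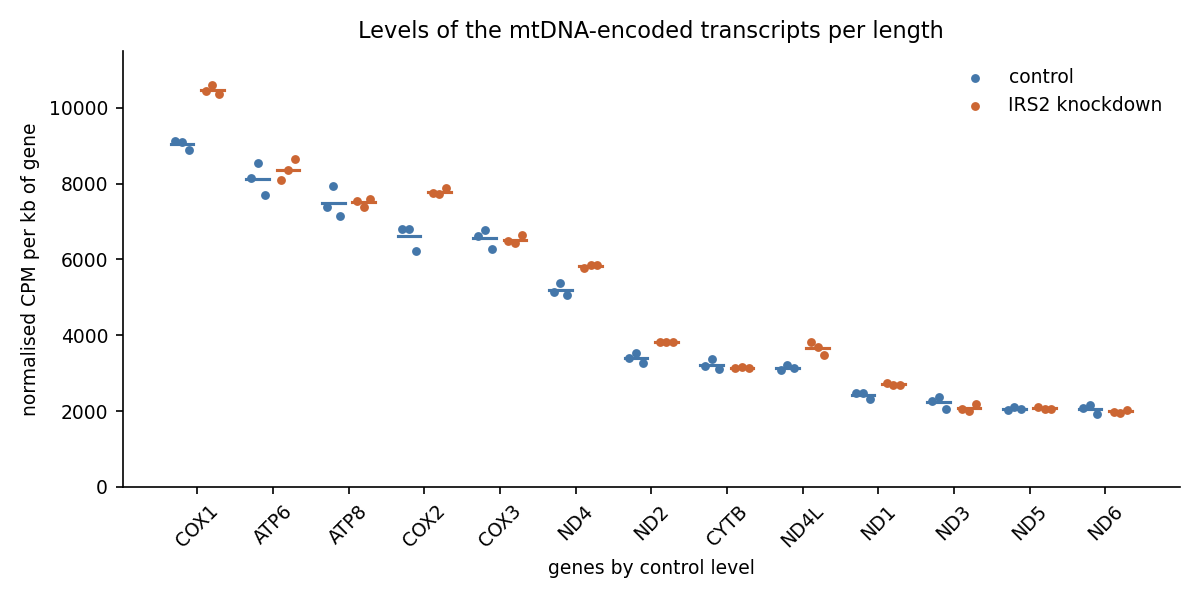
Normalised CPM per kb of gene (vertical axis) for the 13 mtDNA-encoded genes, ordered by their mean level in control (horizontal axis); points are libraries and short lines group means. COX1 has means of 9035 in control and 10465 in knockdown, and the means of ND1, ND3, ND5 and ND6 run from 1993 (ND6, knockdown) to 2705 (ND1, knockdown).

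Among the 26 nuclear members, 25 were expressed highly enough to be tested and 7 passed, 4 higher and 3 lower, against 38.5% of all genes. The count was 4 in DESeq2's Wald test and ranged from 3 to 8 without single libraries, with 1 to 5 higher. Higher were POLRMT (chromosome 19 from 617221 to 633537 of GRCh37), LRPPRC (chromosome 2 from 44113363 to 44223365), PNPT1 (chromosome 2 from 55861196 to 55920998) and ESRRA (chromosome 11 from 64072969 to 64084215). Lower were TRMT10C, TFB2M (chromosome 1 from 246703863 to 246729563) and POLG (chromosome 15 from 89848429 to 89878092). Pseudogenes are annotated for POLRMT, MTERF1 and GABPA (1 each) and for TFAM, SLIRP, PNPT1 and ESRRA (2 each), and reads shared with them could have been divided. The median log2 fold change of the 25 was 0.006, and the largest absolute value was that of TRMT10C. Groups did not overlap for 11 of the 25, against the same 47.6% of all genes.

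**Figure D4:**
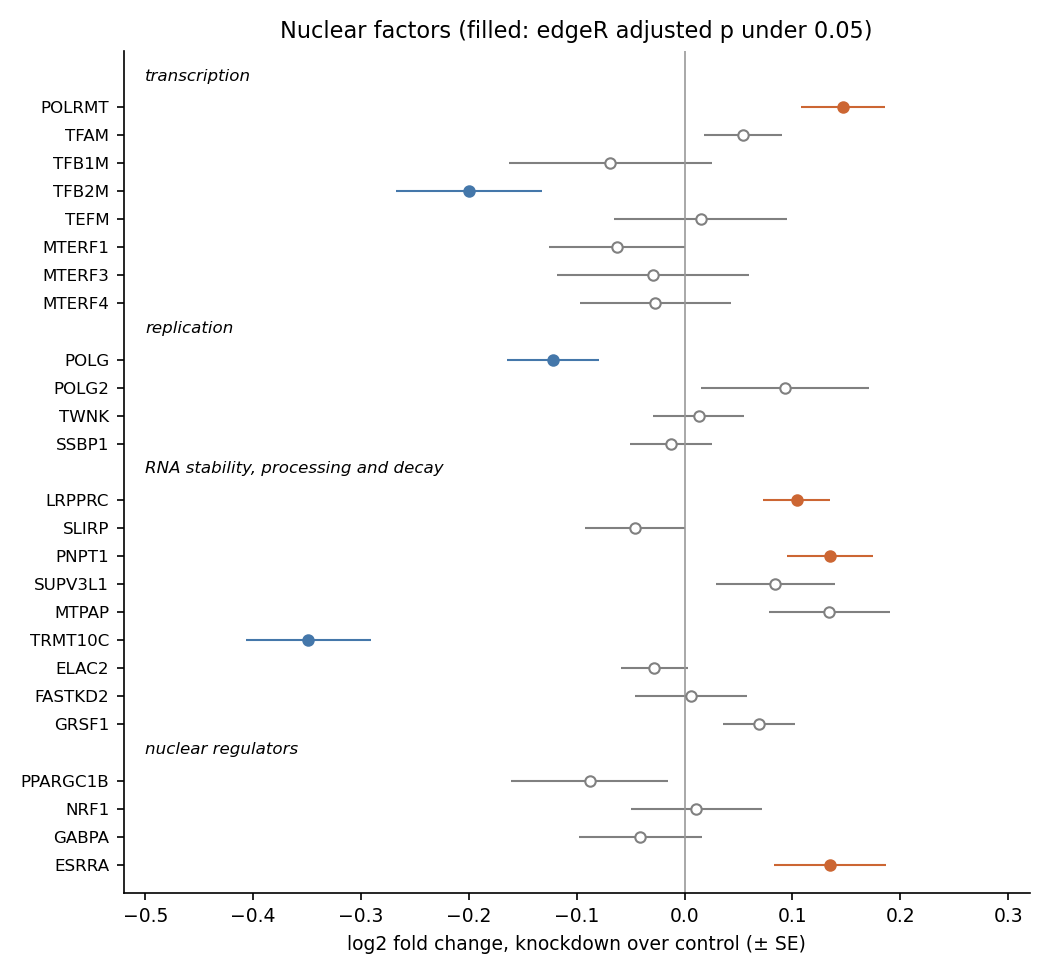
Log2 fold change of knockdown over control (horizontal axis, bars ± SE) for 25 nuclear members, listed by role (vertical axis); filled points have an edgeR adjusted p under 0.05, in orange when higher and blue when lower, and open points do not. TRMT10C lies farthest from 0 at -0.35, and the open points lie between -0.09 and 0.13.

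TRMT10C, a subunit of mitochondrial RNase P that methylates tRNA precursors and is needed for their cleavage, had the largest absolute change of the 25 nuclear members tested. Its gene lies on chromosome 3 from 101280712 to 101285290 of GRCh37 and has 2 exons. It had 507, 476 and 477 counts in control and 415, 545 and 545 in the deeper knockdown libraries. In normalised CPM this was 39.9, 37.7 and 39.8 in the control libraries and 29.2, 32.2 and 30.6 in the knockdown libraries, and no knockdown value reached a control value (log2 fold change -0.35 ± 0.058 SE, adjusted p 9.59e-05 in edgeR). The fall of 21.5% passed in all 18 alternatives, with log2 fold changes of -0.389 to -0.314.

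The other subunits of RNase P, which are no members, were chosen after their values were seen. HSD17B10, a dehydrogenase that forms the methylating subcomplex with TRMT10C, rose, at 135, 136 and 133 in the control libraries and 149, 150.4 and 159 in the knockdown libraries (log2 fold change 0.18 ± 0.037 SE, adjusted p 0.000583 in edgeR). PRORP, the nuclease subunit, was at 37.9, 42.8 and 38.9 in the control libraries and 34.9, 36.4 and 39 in the knockdown libraries, with overlapping groups (log2 fold change -0.11 ± 0.061 SE, adjusted p 0.155 in edgeR). After the length and GC trend was removed its adjusted p was 0.0209 in edgeR (log2 fold change -0.18). ELAC2, which cuts the other end of the tRNAs, was at 208, 207 and 206 in the control libraries and 202, 204 and 202.9 in the knockdown libraries, and although its groups did not overlap the difference did not pass (log2 fold change -0.028 ± 0.031 SE, adjusted p 0.517 in edgeR). It passed with the length and GC trend removed (log2 fold change -0.078, edgeR adjusted p 0.0186).

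Of the 8 members listed under transcription, 1 was higher and 1 lower, against 38.5% of all genes called. The other 6 did not pass. POLRMT, the mitochondrial RNA polymerase, rose, with normalised CPM of 136, 127 and 126 in the control libraries and 144, 141 and 145 in the knockdown libraries (log2 fold change 0.15 ± 0.039 SE, adjusted p 0.00523 in edgeR). It was called in all 18 alternatives, with the smallest log2 fold change, 0.097, under the length and GC offset. TFB2M, which opens the promoter with the polymerase, had 33.2, 32.1 and 31.5 in the control libraries and 28.6, 25.4 and 30.3 in the knockdown libraries (log2 fold change -0.20 ± 0.068 SE, adjusted p 0.0257 in edgeR). That call was lost in edgeR without control replicate 1 (adjusted p 0.0868), control replicate 2 (0.0653) or knockdown replicate 2 (0.165, log2 fold change -0.13), and in DESeq2's Wald test (0.101).

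TFAM, which packages mtDNA and bends its promoters, was at 152, 155 and 158 in the control libraries and 161, 156.1 and 166 in the knockdown libraries (log2 fold change 0.054 ± 0.036 SE, adjusted p 0.251 in edgeR), with overlapping groups. TEFM, the elongation factor, had a log2 fold change of 0.015 ± 0.080 (SE), and TFB1M, an rRNA methyltransferase related to TFB2M, of -0.069 ± 0.094. The MTERF family binds mtDNA and the mitochondrial ribosome. MTERF1 was at -0.063 ± 0.063, MTERF3 at -0.029 ± 0.089 and MTERF4 at -0.027 ± 0.070 on the same scale. The smallest edgeR adjusted p of these 6 genes was 0.251, that of TFAM. Exons of TFB1M overlap those of TIAM2 on the opposite strand, so its reads are uncertain. The same holds for TEFM, which shares 497 bases with an opposite-strand gene without a symbol.

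Of the replication factors, POLG, the catalytic subunit of the mtDNA polymerase, was lower, at 114, 107 and 113 in the control libraries and 106, 104 and 96.9 in the knockdown libraries (log2 fold change -0.12 ± 0.043 SE, adjusted p 0.0302 in edgeR). The groups were apart by a small margin, and the call was lost without control replicate 1 (edgeR adjusted p 0.0999), control replicate 3 (0.0997) or knockdown replicate 3 (0.134, log2 fold change -0.081), in DESeq2's Wald test (0.0876) and after thinning to the count total of the smallest library (0.147). Exons of POLG overlap FANCI on the opposite strand and POLGARF on the same one, and the division of those reads is not known. POLG2, the accessory subunit, was at 14.9, 16.1 and 15.9 in the control libraries and 17, 16.3 and 16.7 in the knockdown libraries (log2 fold change 0.093 ± 0.078 SE, adjusted p 0.376 in edgeR). The helicase TWNK had a log2 fold change of 0.013 ± 0.042 (SE), and the single-strand binding protein SSBP1 of -0.013 ± 0.038, with edgeR adjusted p-values of 0.839 and 0.818.

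The largest nuclear group, with 9 members, was that of RNA stability, processing and decay, to which TRMT10C and ELAC2 also belong. LRPPRC binds the mitochondrial mRNAs other than ND6 together with SLIRP and favours their polyadenylation and stability. It was at 352, 359.8 and 372 in the control libraries and 388, 393 and 383 in the knockdown libraries (log2 fold change 0.10 ± 0.031 SE, adjusted p 0.0117 in edgeR). The increase did not pass in edgeR without control replicate 1 (adjusted p 0.0647) or knockdown replicate 2 (0.0672), with library size alone (0.0632) or with the length and GC trend removed (0.196, log2 fold change 0.038). SLIRP was at 83.7, 75.4 and 79.3 in the control libraries and 75, 76.8 and 78.8 in the knockdown libraries (log2 fold change -0.046 ± 0.046 SE, adjusted p 0.467 in edgeR), with overlapping groups.

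PNPT1, the polynucleotide phosphorylase of the mitochondrial degradosome, rose, at 109.7, 119 and 116 in the control libraries and 122, 129 and 127 in the knockdown libraries (log2 fold change 0.14 ± 0.040 SE, adjusted p 0.0118 in edgeR). The call was lost without control replicate 1 (edgeR adjusted p 0.0746) or knockdown replicate 2 (0.0709). Its helicase partner SUPV3L1 was at 51.6, 51.5 and 47.7 in the control libraries and 50.9, 51.7 and 57.2 in the knockdown libraries (log2 fold change 0.084 ± 0.055 SE, adjusted p 0.247 in edgeR). MTPAP, the mitochondrial poly(A) polymerase, was at 40.5, 41 and 44.7 in the control libraries and 44.1, 48.7 and 45.5 in the knockdown libraries (log2 fold change 0.13 ± 0.056 SE, adjusted p 0.067 in edgeR). It passed without control replicate 3 (edgeR adjusted p 0.0256) or knockdown replicate 1 (0.0471). MTPAP exons share 1120 bases with those of a gene without a symbol on the opposite strand, so its reads are uncertain. GRSF1 and FASTKD2 are RNA-binding proteins of the mitochondrial RNA granules. GRSF1 had 184, 189.7 and 189 in the control libraries and 196, 195 and 199.6 in the knockdown libraries, with no overlap but an edgeR adjusted p of 0.101, and FASTKD2 had a log2 fold change of 0.006 ± 0.052 (SE; edgeR adjusted p 0.939).

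The regulators of nuclear genes for mitochondrial functions were mostly flat or sparse. ESRRA, a nuclear receptor that works with the PGC-1 coactivators, was at 57, 55.5 and 50.5 in the control libraries and 58, 59.5 and 61.5 in the knockdown libraries (log2 fold change 0.14 ± 0.052 SE, adjusted p 0.0455 in edgeR). This call was the weakest of the 7: it was lost in 10 of the 18 alternatives, among them each leave-out other than those of control replicate 1 and knockdown replicate 1, with adjusted p-values up to 0.21 (without control replicate 3, edgeR, where the log2 fold change was 0.089). The leave-outs of control replicate 2, knockdown replicate 2 and knockdown replicate 3 gave 0.0633, 0.0965 and 0.127. Exons of ESRRA also overlap TRMT112 on the opposite strand. NRF1 was at 27, 28.1 and 27.3 in the control libraries and 26.6, 28.3 and 28 in the knockdown libraries (log2 fold change 0.011 ± 0.061 SE, adjusted p 0.906 in edgeR). GABPA had a log2 fold change of -0.041 ± 0.057 (SE; edgeR adjusted p 0.618) and PPARGC1B, a PGC-1 coactivator, of -0.088 ± 0.073 (edgeR adjusted p 0.375).

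PPARGC1A, the coactivator PGC-1α and a main driver of mitochondrial biogenesis in many tissues, was barely detected. It had 7, 6 and 9 counts in control and 2, 1 and 4 in knockdown libraries, and did not pass the filter on low counts. Each knockdown library had fewer counts than each control although it was deeper. Fitted without the filter, which was an alternative, its log2 fold change was -1.97 ± 0.66 (SE) and its edgeR adjusted p 0.013. At so few counts this value depends on single reads.

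**Figure D5:**
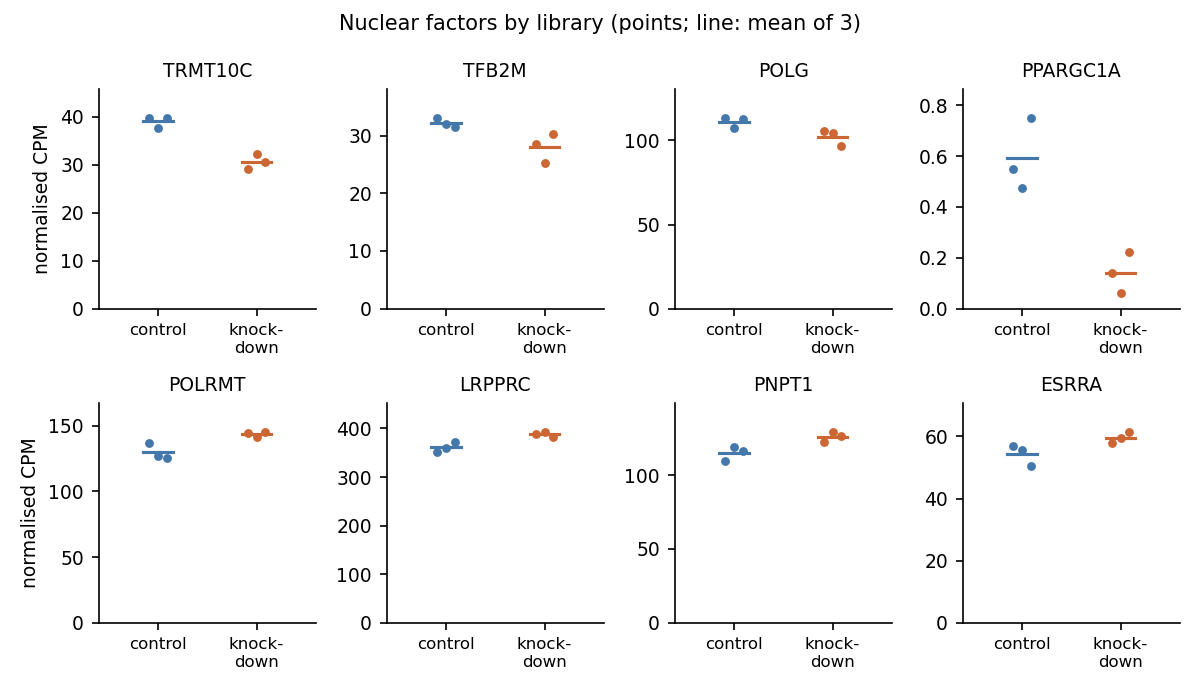
Normalised CPM (vertical axes, each from 0) of 8 nuclear members in the 3 control and 3 knockdown libraries (horizontal axes); points are libraries and short lines group means. TRMT10C, TFB2M, POLG and PPARGC1A lie lower in knockdown, PPARGC1A at under 1 CPM throughout. POLRMT, LRPPRC, PNPT1 and ESRRA lie higher, and the groups do not overlap in any of the 8. The genes shown are the 7 called nuclear members and PPARGC1A. Groups did not overlap for 11 of the 25 nuclear members tested and for 47.6% of all genes tested.

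Other genes of mitochondrial gene expression were taken from 7 lists of 131 genes, of which 129 were tested. Of these, 20 were higher and 18 lower, 38 in all, against 38.5% of all genes, and the median log2 fold change was -0.026. The split depended on the setting: 9 were higher and 28 lower with library size alone, 13 and 29 with the length and GC offset, and 10 and 9 in DESeq2's Wald test. In the list of tRNA and rRNA processing and modification, 7 of 33 were higher and 7 lower. GTPBP3 and PUS1, which modify mitochondrial tRNAs, fell (log2 fold change -0.40 ± 0.052 SE, adjusted p 4.54e-06 in edgeR; log2 fold change -0.25 ± 0.047 SE, adjusted p 0.000276 in edgeR), and PTCD3, a pentatricopeptide protein of the mitochondrial ribosome, rose (log2 fold change 0.21 ± 0.032 SE, adjusted p 3.51e-05 in edgeR).

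In the list of mtDNA replication, repair and nucleoid genes 1 of 16 passed, against 38.5% of all genes. It was UNG, a uracil DNA glycosylase with nuclear and mitochondrial forms, which fell from 155 ± 3.98 CPM in control to 124 ± 5.72 CPM in knockdown (SD over 3 libraries; log2 fold change -0.32 ± 0.040 SE, adjusted p 3.10e-06 in edgeR). Among the 14 tested genes of nucleotide supply, 3 were higher and 3 lower. Outside the rule for named genes these include SLC25A33 (log2 fold change 0.18, edgeR adjusted p 0.0368) and SUCLA2 (0.11, 0.0496), which were higher. SUCLG1 was lower (log2 fold change -0.13, edgeR adjusted p 0.0339). SAMHD1, a dNTP hydrolase, rose (log2 fold change 0.24), while RRM1, a ribonucleotide reductase subunit, and TK2, mitochondrial thymidine kinase, fell (-0.12 and -0.35). The call of TK2 was lost without control replicate 1 (edgeR adjusted p 0.0615) and in DESeq2's Wald test (0.0843).

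Of 20 translation factors and activators, 3 were lower and no other passed in edgeR, against 19.2% lower of all genes. They were COX14 (-0.29), a factor of COX1 synthesis and complex IV assembly, and the elongation factors TSFM (-0.19) and GFM1 (-0.14), on the log2 scale, and none of them was called in DESeq2's Wald test. Without knockdown replicate 2 their edgeR adjusted p-values were 0.0535, 0.0767 and 0.0782. TSFM was also lost without control replicate 2 (0.116), and GFM1 without control replicate 2 (0.0945), control replicate 3 (0.108) or knockdown replicate 1 (0.0803). The list of mitochondrial aminoacyl-tRNA synthetases held 22 genes, among them QRSL1, GATB and GATC, which are not synthetases. Of the 22, 2 were higher and 3 lower, against 38.5% of all genes called. The higher ones, outside the rule for named genes and chosen after their values were seen, were SARS2 (log2 fold change 0.20, edgeR adjusted p 0.0245) and GARS1 (0.085, 0.0328). TARS2 fell (log2 fold change -0.30 ± 0.049 SE, adjusted p 7.45e-05 in edgeR), as did WARS2 (log2 fold change -0.38 ± 0.091 SE, adjusted p 0.00279 in edgeR), in each of the 18 alternatives. YARS2 had a log2 fold change of -0.15 (edgeR adjusted p 0.0221) and was lost without control replicate 3 (0.142), knockdown replicate 1 (0.057) or knockdown replicate 2 (0.0515), in DESeq2's Wald test (0.0921) and after thinning (0.0903).

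In the FASTK family, 1 of 5 tested genes passed: FASTKD1 had a log2 fold change of 0.13 (edgeR adjusted p 0.0305), and the call was lost without control replicate 1 (0.0918), control replicate 3 (0.0763) or knockdown replicate 2 (0.141). It was also lost with upper-quartile factors (0.0647), library size alone (0.0906), the length and GC offset (0.0723) and in DESeq2's Wald test (0.119). In the coactivator and nuclear respiratory factor network, 7 of 19 tested genes were higher and 1 lower, against 38.5% of all genes, with a median log2 fold change of 0.042. MYC, which also drives nuclear genes for mitochondria, rose from 307 ± 4.72 CPM in control to 369 ± 10.4 CPM in knockdown (SD over 3 libraries; log2 fold change 0.27 ± 0.031 SE, adjusted p 1.84e-06 in edgeR). NCOR1, a corepressor, rose (log2 fold change 0.15 ± 0.036 SE, adjusted p 0.00247 in edgeR), by less with the length and GC offset (log2 fold change 0.068, adjusted p 0.0438). PPARG, a nuclear receptor partner of the PGC-1 coactivators, fell (log2 fold change -0.37 ± 0.084 SE, adjusted p 0.00163 in edgeR).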

How the data were processed

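Total RNA was sequenced from 3 control and 3 IRS2 knockdown cultures of SW403, grouped by their titles. The authors deposited whole-number read counts per gene symbol, 1 column per library, and scaled values that were not used here. The submitters' processing notes name STAR 2.6.1a, Salmon, DESeq2 and hg19. Which tool counted, the annotation and the strand setting are not given in the sources used here. No row lacked a gene name, and 0 columns were left unused. Libraries held 11816973 to 18114656 counts.

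The members and lists were chosen with earlier results of these data known. All 39 members are described, and up to 3 called genes with the smallest p are named per list. Symbols were matched to RefSeq and GENCODE 44 (GRCh37) for place, length and GC content. Counts were tested with edgeR 4.0.16 in R 4.3.3 (TMM, filterByExpr, quasi-likelihood F-test, group only), adjusted by Benjamini-Hochberg over 13832 genes, threshold 0.05. SE was taken as |log2 fold change| over the root of the F statistic. Normalised CPM uses TMM factors. Shares were compared by exact permutation tests. The code was tested on simulated data. Alternatives were other scalings, filters, tests (DESeq2 1.42.0, limma 3.58.1 voom), thinning, a length and GC offset (splines with 4 degrees of freedom, set on genes averaging 200 counts or more), a replicate block and leaving out each library.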

Additional observations from a re-analysis of the deposited data

How the results depend on the processing

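Of 684 values for the 38 members with a fit (18 alternatives each), 574 kept both direction and call, 27 lost the call, 16 gained one and 67 changed sign. The log2 fold change of IRS2 was -1.39 with the replicate block and -1.418 to -1.348 without single libraries. The total of called genes was 3890 in DESeq2's Wald test and 5722 without a filter. Deviations of same-numbered libraries correlated at 0.045, -0.011 and -0.098, so the numbers were not taken as pairs, and 1 of 3 correlated best with its own number. The replicate block called 4862 genes, of which 6 were mitochondrial and 5 nuclear members. In the block POLG had an adjusted p of 0.0537 and ESRRA of 0.0754. NCOR1 had one of 0.0578 (log2 fold change 0.067) with the length and GC offset added to the block, and the exact sign-flip p of the share of the 13 genes was 0.25, the smallest 3 pairs can give.

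Lower mitochondrial genes numbered 1 with upper-quartile factors, library size alone, an average of 50 counts or more as filter or none at all, and 0 to 2 without single libraries (2 without control replicate 3), against 0. Nuclear members called were 4 in DESeq2's Wald test (lower: 1), with 2 higher with library size alone. Without single libraries they ranged from 3 to 8, higher from 1 to 5 and lower from 1 to 3. Accessory genes called were 19 in DESeq2's Wald test, with 10 higher and 9 lower. Higher ones numbered 12 with upper-quartile factors, 9 with library size alone, 13 with the length and GC offset and 12 when the replicate block was added to it. Lower ones were 28, 29 and 30 under the last 3 of these. Without single libraries the higher ones ranged from 12 to 16. The cause of these changes was not tested.

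No value that changed sign was called in the fit reported, and COX3 alone was called after it, with the length and GC offset. The values below are log2 fold changes after a change of sign. With the replicate block and the length and GC offset together these were ND3 0.005, ND6 0.046, CYTB 0.015, COX3 0.057, MTERF3 0.019, MTERF4 0.003, TWNK -0.036, SSBP1 0.066, SLIRP 0.043, FASTKD2 -0.057 and NRF1 -0.034. With the length and GC offset these were ND3 0.003, ND6 0.045, CYTB 0.015, COX3 0.057, MTERF3 0.011, TWNK -0.034, SSBP1 0.067, SLIRP 0.042, FASTKD2 -0.055 and NRF1 -0.032. With upper-quartile factors these were ND5 -0.013, ATP8 -0.017, TEFM -0.006, TWNK -0.008, FASTKD2 -0.014 and NRF1 -0.009. With library size alone these were ND5 -0.023, ATP8 -0.027, TEFM -0.016, TWNK -0.018, FASTKD2 -0.024 and NRF1 -0.019. With an average of 50 counts as filter these were ND5 -0.006, ATP8 -0.01, TWNK -0.000188, FASTKD2 -0.006 and NRF1 -0.002. With no filter these were COX3 0.003. With thinning these were TEFM -0.006, MTERF4 0.003 and NRF1 -0.021. Without single libraries the range was -0.009 to 0.031 for ND5, -0.08 to 0.001 for ND6, -0.053 to 0.006 for CYTB, -0.035 to 0.02 for COX3, -0.024 to 0.05 for ATP8, -0.152 to 0.045 for TFB1M, -0.027 to 0.06 for TEFM, -0.12 to 0.025 for MTERF3, -0.058 to 0.029 for MTERF4, -0.011 to 0.027 for TWNK, -0.055 to 0.01 for SSBP1, -0.042 to 0.048 for FASTKD2, -0.007 to 0.038 for NRF1 and -0.082 to 0.031 for GABPA. Precision is limited by 3 libraries a group, and for PPARGC1A by depth.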

Other observations

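The count table also listed 9 genes of the MTRNR2L group, nuclear copies of part of the mitochondrial rRNA region, and none of the nuclear copies of the protein genes by the symbols searched (starting MTND, MTCO, MTATP or MTCYB). MTRNR2L2 had the highest mean of the 9, with 89, 111 and 94 counts in control and 122, 135 and 175 in the deeper knockdown libraries. Reads of mtDNA and of its nuclear copies can be alike, and the sources used here do not say where shared reads were placed.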
